A study of Homo sapiens with 12 samples.

Results

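Inflammatory cytokine genes that epithelial tumour cells can transcribe themselves were followed in 2 prostate cancer cell lines given the diarylpentanoid MS13. They were chosen by name: interleukin-1 alpha and beta (IL1A, IL1B), interleukin-6 (IL6), interleukin-8 (IL8, now called CXCL8), interleukin-11 (IL11), interleukin-24 (IL24), leukaemia inhibitory factor (LIF), tumour necrosis factor (TNF) and the colony-stimulating factors CSF2 and CSF3. All 10 were found among the 730 panel genes that are not housekeeping genes (770 with them). DU 145, a line from a brain metastasis of a prostate carcinoma, and PC-3, from a bone metastasis of a prostate adenocarcinoma, both grow without androgen. In each line, 3 samples received 16 µM MS13 in DMSO for 24 h and 3 control samples received medium with DMSO alone. No sample carried an engineered allele. Total RNA was hybridised to the nCounter PanCancer Pathway Panel, in which each transcript is counted through a barcoded probe. Values below are normalized counts, that is raw counts divided by the geometric mean of 40 housekeeping genes in the sample and returned to the common scale. Probes differ in how well they capture their target, so counts were compared between groups and not between genes.

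These secreted proteins carry signals between tumour cells, stroma and leukocytes. In epithelial tumour cells, stress and interleukin-1 or Toll-like receptor signals reach their genes mainly through the transcription factors NF-kB and AP-1. The secreted IL6, IL11 and LIF then act through receptors that share the gp130 chain and switch on JAK kinases and STAT transcription factors, while IL8 attracts neutrophils. Constitutive IL6 and IL8 secretion is a known trait of androgen-independent prostate cancer lines.

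RefSeq gave a promoter (250 bases before to 50 bases after a transcript start, GRCh38.p14) for 8 of the 10 genes. LIF and CSF3 are named only. The 4 promoters printed here belong to genes whose counts differed most clearly between the groups, and they were picked with those counts known. Capitals mark matches to 3 short motifs searched on both strands, an NF-kB core (GGANTTTCC), an AP-1 site (TGANTCA) and a TATA box (TATAAA).
IL8 (chr4:73740319-73740618, plus strand): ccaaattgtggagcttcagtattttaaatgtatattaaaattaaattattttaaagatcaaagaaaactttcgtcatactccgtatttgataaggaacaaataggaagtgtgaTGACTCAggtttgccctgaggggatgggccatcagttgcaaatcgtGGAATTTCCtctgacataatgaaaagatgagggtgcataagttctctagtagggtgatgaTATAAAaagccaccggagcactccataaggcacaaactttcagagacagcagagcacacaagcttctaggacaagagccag
IL6 (chr7:22726950-22727249, plus strand): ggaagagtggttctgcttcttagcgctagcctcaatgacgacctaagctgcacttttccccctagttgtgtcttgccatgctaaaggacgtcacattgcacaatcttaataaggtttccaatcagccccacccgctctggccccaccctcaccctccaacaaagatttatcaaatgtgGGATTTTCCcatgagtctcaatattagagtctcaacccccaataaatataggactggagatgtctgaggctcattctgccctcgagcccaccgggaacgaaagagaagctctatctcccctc
IL11 (chr19:55370414-55370713, minus strand): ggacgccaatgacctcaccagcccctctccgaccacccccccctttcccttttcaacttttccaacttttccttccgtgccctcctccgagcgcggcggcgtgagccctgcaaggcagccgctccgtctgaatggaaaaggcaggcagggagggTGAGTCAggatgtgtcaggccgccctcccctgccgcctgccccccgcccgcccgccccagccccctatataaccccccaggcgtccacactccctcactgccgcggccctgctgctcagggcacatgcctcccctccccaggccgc
IL1B (chr2:112836730-112837029, minus strand): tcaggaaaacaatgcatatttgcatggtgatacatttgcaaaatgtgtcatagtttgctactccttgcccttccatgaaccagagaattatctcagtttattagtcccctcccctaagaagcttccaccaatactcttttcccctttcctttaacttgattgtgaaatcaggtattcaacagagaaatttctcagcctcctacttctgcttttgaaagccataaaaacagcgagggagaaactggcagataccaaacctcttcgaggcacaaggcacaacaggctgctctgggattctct
The NF-kB core stood in the windows of IL6 (bases -72 to -64 from the start) and IL8 (-91 to -83), and in 1.64% of all 35116 promoters of the table. The AP-1 letters stood in IL8 (-137 to -131), in IL11 (-96 to -90) and in both windows of IL1A, and in 7.71% of all promoters. The TATA box letters stood in IL8 (-31 to -26), in TNF (-29 to -24) and far from the start in 1 of the windows of IL1A (-239 to -234), and in 11.5% of all promoters. The window of IL1B held none of these 3 motifs. The CRE (TGACGTCA), a composite C/EBP-ATF motif (TGATGNAA) and a heat shock element were also searched and matched none of the 8 genes, against 1.85%, 3.62% and 0.49% of all promoters. A match to such letters is a description and not a measured binding site.

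The samples held 437471 to 604629 panel counts each, with the MS13-treated PC-3 cells lowest. The panel's leukocyte markers were mostly under the background limit. Of 9 present, CD40 and SYK were above it in DU 145 cells, and IL7R in addition in PC-3 cells, with summed counts of 263 to 328 in DU 145 and 415 to 502 in PC-3 samples. PC-3 cells also carried more stromal marker counts, from COL5A1 and COL5A2, with sums of 1093 to 1125 in control and 471 to 566 in MS13-treated samples, against 95.3 to 157 in DU 145 samples. The other 7 of 9 stromal markers were under the limit in every group. Epithelial markers such as CDH1, EGFR and MET were well above it in both lines. The study describes cultures of DU 145 or PC-3 cells and mentions no other cells added to them. In bulk RNA, treated cells with less RNA per cell cannot be told apart from regulation. The part of cell types or of RNA per cell in the results was not tested.

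PC-3 control replicates 2 and 3 showed no difference beyond sampling noise that the test could detect (chi-square per degree of freedom 1.04, p = 0.20, where the other pairs of a group ran from 1.17 to 2.21). They were therefore added together, and the PC-3 control group has n = 2. MS13-treated PC-3 replicate 3 stood apart from its replicates 1 and 2 (chi-square per degree of freedom 2.21 and 1.70). The series description calls the replicates biological and also mentions technical repeats. The p-values therefore set each difference against the spread between these samples, which may be partly technical. The fit shares its estimate of that spread over the tested genes, so small p-values do not rest on a gene's own samples alone.

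Of the 10 cytokine genes, 5 lay above the background limit in control DU 145 cells and 6 after MS13. In PC-3 cells 7 were above it in the controls and 8 after MS13. Of the 730 panel genes, 62.7% lay above it in control DU 145 cells and 63.8% after MS13. In PC-3 cells these shares were 65.3% and 61.8%, so the cytokine counts were not compared with the panel by a test. The limit, the mean plus 2 SD of the 8 negative probes, was 27.5, 20.5, 28.0 and 34.1 normalized counts in these 4 groups, in that order. IL6, IL8, IL11, LIF and CSF2 were above it in all 4 groups. TNF, the archetypal NF-kB-driven cytokine, had group means of 6.51 to 12.5, and CSF3, which drives neutrophil production, of 7.65 to 13.0. Both were under the limit in every group and their expression was not detectable above background. TNF also fell under the minimum mean of 10 counts and was not tested, which leaves 9 genes with a test. With a limit of 3 SD, IL1A and IL24 were no longer above it in MS13-treated PC-3 cells.

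**Figure D1:**
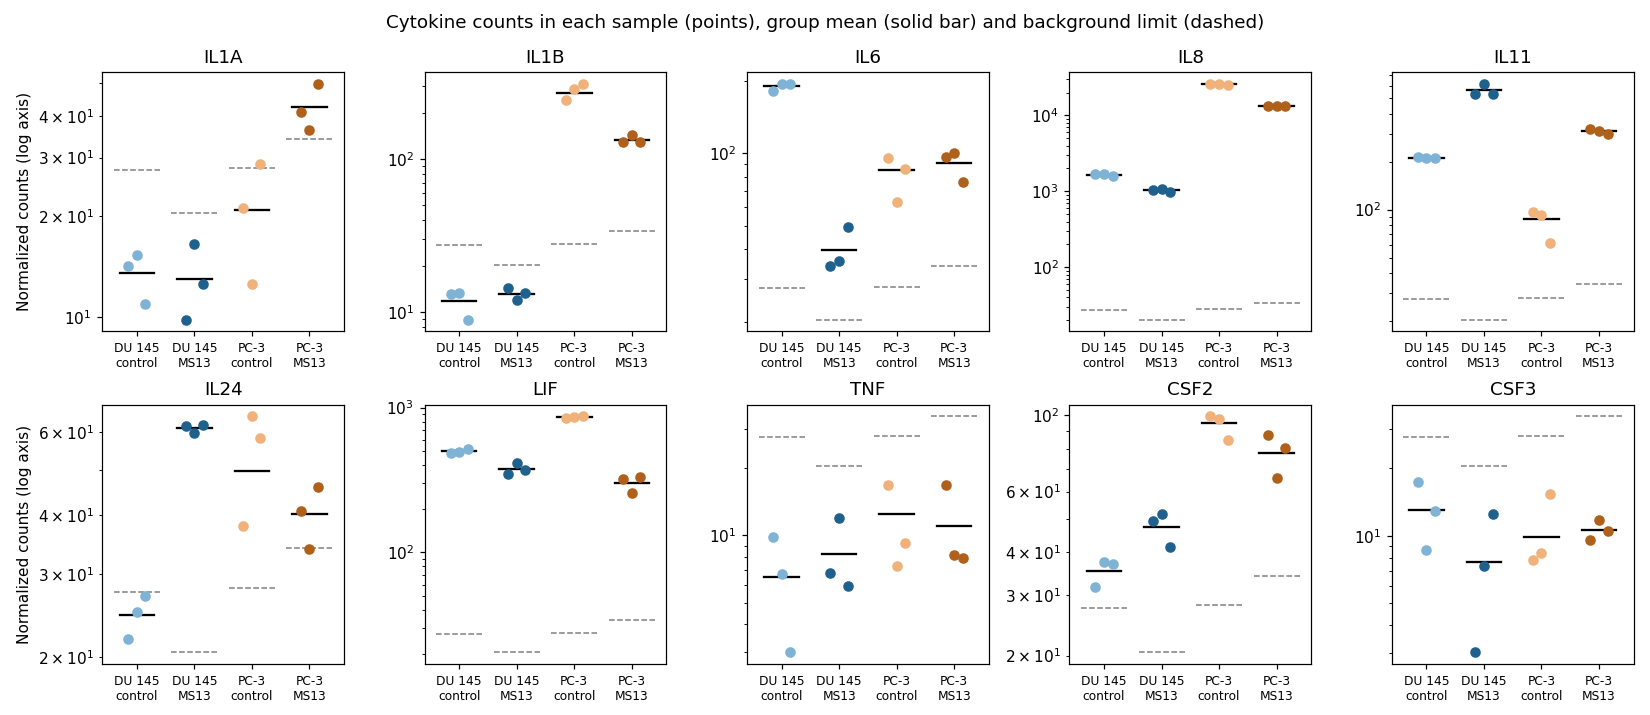
Normalized counts (log axis) of each cytokine gene in every deposited sample (points) of the 4 groups, with the group mean as a solid bar (PC-3 control over 2 counted samples) and the background limit as a dashed line. IL8 separates the lines and falls with MS13 in both, IL11 rises in both, IL6 falls in DU 145 cells, and TNF and CSF3 lie under the limit throughout.

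The untreated lines differed first of all in IL8 and IL1B. Between control PC-3 and control DU 145 cells, 5 of 9 tested cytokine genes were higher and 2 lower in PC-3 (edgeR quasi-likelihood test, adjusted p of 0.05 or less), where 36% and 31% of the 684 tested genes were called in these directions. The median log2 difference was 0.78 over the cytokine genes and 0.05 over all tested genes. IL8, LIF, CSF2, IL1B and IL24 were the higher genes, and IL6 and IL11 were the lower ones.

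IL8, the neutrophil chemokine, was counted at 1683, 1670 and 1601 in the DU 145 control replicates and at 26251, 26019 and 25262 in the PC-3 control replicates. The log2 difference of 3.97 ± 0.04 (SE) corresponds to a 15.7-fold higher count in PC-3 cells (adjusted p = 1.2e-78). IL1B, the secreted interleukin-1 that is cleaved from a precursor, stood at 13.1, 13.4 and 8.98 in DU 145 controls, under the background limit, and at 245, 288 and 312 in PC-3 controls. Against the limit it was at least 9.91-fold higher in PC-3 cells (adjusted p = 3.1e-40). IL24, a cytokine of the interleukin-10 family, was likewise under the limit in DU 145 controls and at least 1.81-fold higher in PC-3 controls (adjusted p = 1.1e-06). LIF differed by 0.78 ± 0.06 on the log2 scale and CSF2, the granulocyte-macrophage colony-stimulating factor, by 1.40 ± 0.16, both higher in PC-3 cells. IL6 and IL11 were lower in PC-3 controls, with log2 differences of -1.22 ± 0.12 and -1.34 ± 0.11.

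In DU 145 cells, MS13 was followed by lower IL6 and IL8 and by higher IL11 and IL24. In total 3 of 9 tested cytokine genes rose (19% of all tested genes did) and 3 fell (47.1% of all tested genes did). The median log2 fold change was -0.08 over the cytokine genes and -0.34 over all tested genes. That median of all genes depended on the scaling and was 0.07 with TMM, which assumes that most genes do not change. Changes are therefore also given relative to the median of -0.34.

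IL6 fell the most. Its normalized counts were 182, 194 and 195 in control DU 145 cells and 34.0, 35.9 and 49.6 after MS13. All treated samples were far below the controls, and all stayed above the background limit. The log2 fold change was -2.24 ± 0.13 (SE, adjusted p = 1.5e-27), a 4.73-fold fall, and -1.90 relative to the median of all genes. IL8 counts were 1049, 1059 and 991 after MS13, below the 1601 to 1683 of the controls. IL8 fell by 0.68 ± 0.04 on the log2 scale (1.60-fold, adjusted p = 1.1e-24), and relative to the median its change was -0.34. Over the 4 scalings its log2 fold change ran from -0.68 to -0.27.

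IL11, a gp130 cytokine linked to epithelial repair and bone turnover, went the other way. Its counts were 212, 210 and 211 in control and 533, 616 and 530.5 in MS13-treated DU 145 cells, without overlap. It rose by a log2 fold change of 1.40 ± 0.07 (2.64-fold, adjusted p = 2.5e-30), and by 1.74 relative to the median of all genes. IL24 was under the limit in the controls, at 21.8, 25.0 and 26.9, and reached 62.0, 59.8 and 62.1 after MS13. The treated samples differed little among themselves, and the rise was at least 2.23-fold against the limit (adjusted p = 2.1e-09). Relative to the median its fitted change was 1.66. IL24 is known as a gene induced by stress and differentiation signals that can promote death of tumour cells.

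LIF and CSF2 gave smaller differences in DU 145 cells. LIF, a gp130 cytokine that maintains stem cells in the mouse, had 488, 497 and 522 counts in controls and 347, 413 and 369 after MS13. The groups did not overlap and the log2 fold change was -0.42 ± 0.06 (adjusted p = 1.8e-08), but relative to the median of all genes it was -0.08. The call was lost with TMM scaling (-0.01, adjusted p = 0.87) and with scaling to the positive control probes (-0.15, adjusted p = 0.070). CSF2 had 31.6, 37.4 and 36.9 counts in controls and 49.1, 51.5 and 41.4 after MS13, without overlap, and a log2 fold change of 0.41 ± 0.18 (adjusted p = 0.036), or 0.75 relative to the median. It did not pass in DESeq2 (adjusted p = 0.10), nor without control replicate 1, 2 or 3 (adjusted p = 0.14, 0.050 and 0.055) or without MS13 replicate 1 or 2 (0.090 and 0.098). IL1A and IL1B were under the limit in both DU 145 groups, with means of 13.5 and 13.0 for IL1A and 11.8 and 13.2 for IL1B. Neither passed the test (adjusted p = 0.85 and 0.66). Fitted values of these 2 genes and of CSF3, where drawn in figures or listed under other settings, were read under the limit and fix no size.

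**Figure D2:**
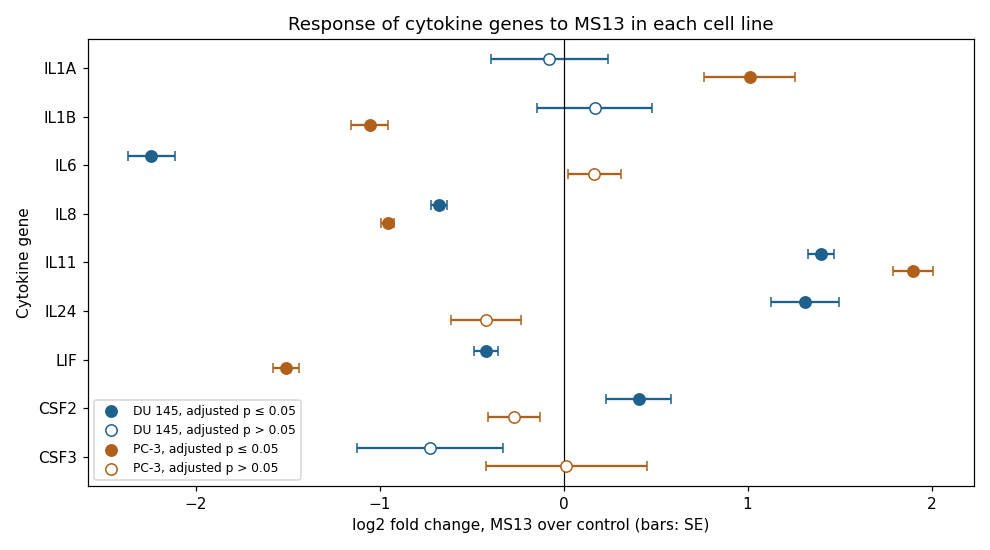
log2 fold change of MS13-treated over control cells for the 9 tested cytokine genes in DU 145 (blue) and PC-3 cells (brown), with bars of 1 SE, filled where the adjusted p was 0.05 or less. IL11 lies right of 0 and IL8 and LIF left of 0 in both lines, while IL6, IL24, IL1A, IL1B and CSF2 are filled in 1 line. IL1A and IL1B in DU 145 cells and CSF3 in both lines were read under the background limit.

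In PC-3 cells, MS13 was followed by lower IL8, IL1B and LIF and by higher IL11 and IL1A. Of 9 tested cytokine genes 2 rose (21.9% of all tested genes did) and 3 fell (36.8% of all tested genes did). The median log2 fold change was -0.27 over the cytokine genes and -0.09 over all tested genes.

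IL8 dropped from 26251, 26019 and 25262 counts in the controls to 13350, 13507 and 13241 after MS13. The 3 treated samples lay within a narrow range far below the controls and still far above every DU 145 sample. The log2 fold change was -0.96 ± 0.04 (1.94-fold, adjusted p = 5.3e-39). IL1B fell from 245, 288 and 312 to 129, 144 and 130, again without overlap, by a log2 fold change of -1.06 ± 0.10 (2.08-fold, adjusted p = 1.2e-15). LIF fell from 851, 867 and 870 to 324, 256 and 329. Its log2 fold change of -1.51 ± 0.07 (2.85-fold, adjusted p = 1.4e-32) was the largest fall among the cytokine genes of this line, and LIF ended below its level in either DU 145 group.

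IL11 rose from 97.0, 92.1 and 61.3 to 321, 312 and 299. The log2 fold change of 1.90 ± 0.11 (3.73-fold, adjusted p = 3.1e-27) brought every treated PC-3 sample above the DU 145 controls and left it below the treated DU 145 samples. IL1A, the interleukin-1 form that acts also from the cell membrane and from dying cells, had 21.2, 12.6 and 28.6 counts in controls and 40.9, 36.3 and 49.9 after MS13. Its control mean of 20.9 was under the limit and its treated mean of 42.4 was close above it, so the rise was at least 1.51-fold (adjusted p = 2.4e-04). It did not pass once the mean of the negative probes was subtracted (adjusted p = 0.19).

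IL6 gave no call in PC-3 cells. It had 95.9, 62.8 and 85.9 counts in controls and 96.3, 101 and 76.1 after MS13, and the groups overlapped (log2 fold change 0.17 ± 0.15, adjusted p = 0.35). IL24 had 37.9, 64.9 and 58.3 counts in controls and 40.9, 34.0 and 46.0 after MS13, also with overlap (-0.42 ± 0.19, adjusted p = 0.051). Its call turned on the setting. It passed without PC-3 control replicate 1 (-0.62, adjusted p = 0.0053), without MS13-treated PC-3 replicate 3 (-0.52, adjusted p = 0.032), and without MS13-treated DU 145 replicate 2 (-0.43, adjusted p = 0.045). It also passed with positive control probes (-0.49, adjusted p = 0.019), after negative probe subtraction (-0.69, adjusted p = 0.049) and with the 12 samples kept separate (adjusted p = 0.044). CSF2 had 99.2, 97.3 and 84.8 counts in controls and 87.9, 65.6 and 80.1 after MS13 (-0.27 ± 0.14, adjusted p = 0.092). It passed without MS13-treated PC-3 replicate 1 (-0.37, adjusted p = 0.042) and with positive control probe scaling (-0.34, adjusted p = 0.028).

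The response to MS13 differed between the lines for 8 of the 9 tested cytokine genes. In a test of the difference itself, PC-3 minus DU 145, 3 genes had the higher value in PC-3 cells (32% of all tested genes did) and 5 the lower one (18% of all tested genes did). The median difference was -0.28 over the cytokine genes and 0.22 over all tested genes. Both within-line responses use their own controls, and each line holds its own baseline.

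IL6 showed the largest difference, of 2.41 ± 0.20 on the log2 scale (adjusted p = 4.7e-18), with a fall in DU 145 and no call in PC-3 cells. IL24 differed by -1.74 ± 0.27 (adjusted p = 6.2e-08), since it rose in DU 145 cells. Its DU 145 controls were under the background limit, so this value fixes no exact size. LIF fell further in PC-3 cells, by a difference of -1.09 ± 0.10 (adjusted p = 2.4e-16), and so did IL8, by -0.28 ± 0.06 (adjusted p = 1.8e-05). CSF2 differed by -0.68 ± 0.22 (adjusted p = 0.0089). The sizes depended on scaling, and over the 4 scalings the difference ran from -0.62 to -0.28 for IL8 and from -1.03 to -0.68 for CSF2, called in each. For IL1B (-1.22 ± 0.33, adjusted p = 0.0012) and IL1A (1.09 ± 0.41, adjusted p = 0.021) the DU 145 response was read under the background limit, so these values fix no size.

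The differences of IL1A and IL11 were the least stable. IL11 rose in both lines, further in PC-3 cells by 0.50 ± 0.14 (adjusted p = 0.0013). The difference was 0.23 with TMM scaling (adjusted p = 0.15), 0.15 with positive control probes (adjusted p = 0.40) and 0.32 without PC-3 control replicate 3 (adjusted p = 0.061). For IL1A, adjusted p was 0.064 in DESeq2, 0.089 with TMM, 0.13 with positive control probes and 0.60 after negative probe subtraction. Without DU 145 control replicate 1 it was 0.051, without DU 145 control replicate 2 it was 0.067, and without MS13-treated DU 145 replicate 1 it was 0.064. Without PC-3 control replicate 2 it was 0.099, and without MS13-treated PC-3 replicate 3 it was 0.054.

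**Figure D3:**
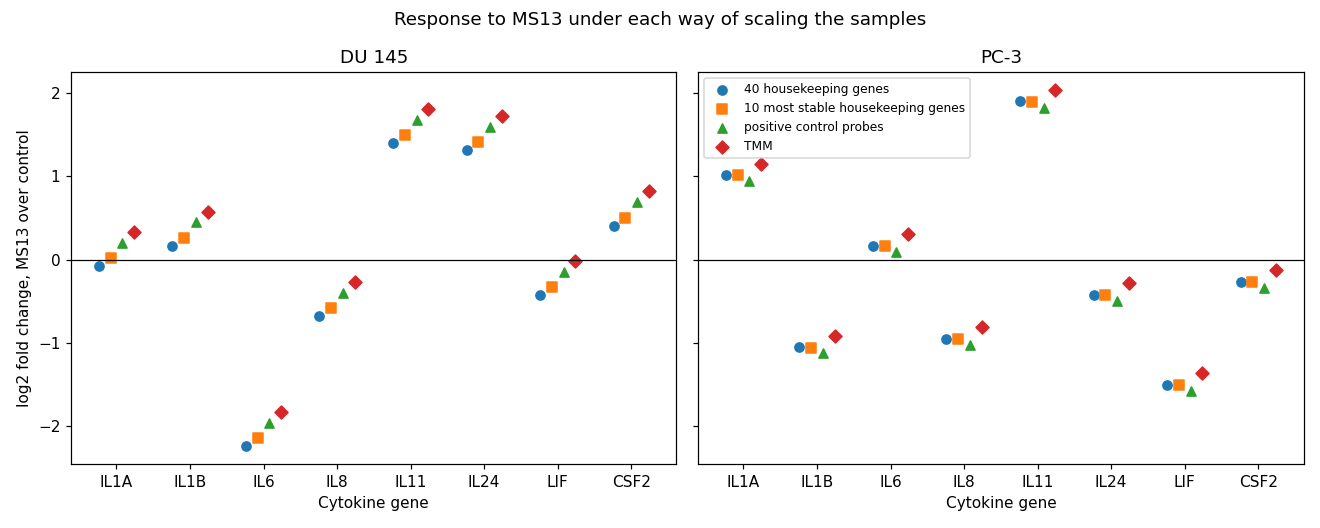
log2 fold change of MS13-treated over control cells for 8 cytokine genes under 4 ways of scaling the samples, in DU 145 (left) and PC-3 cells (right). In DU 145 cells the points of each gene spread by about the same amount, so LIF moves from -0.42 with 40 housekeeping genes to -0.01 with TMM, whereas IL6, IL8, IL11 and IL24 stay on their side of 0. IL1A and IL1B in DU 145 cells were read under the background limit.

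The panel also held receptors and signal carriers of these cytokines, given here by pathway list. From here on, ± after a count is the SD over the counted samples of the group (n = 2 in PC-3 controls, n = 3 elsewhere). After a log2 value, ± is the SE. Of 9 tested genes of interleukin-1 and Toll signalling, DU 145 cells had 3 higher and 1 lower after MS13, and PC-3 cells had 2 higher and 1 lower. Of all 684 tested genes, 19% were higher and 47.1% lower in DU 145 cells, and 21.9% higher and 36.8% lower in PC-3 cells. No list was tested as a set against these shares. IL1RAP, the accessory chain that the interleukin-1 receptor needs to signal, rose in both lines (0.99 ± 0.07 and 1.25 ± 0.10 in log2, DU 145 and PC-3). IRAK2, a kinase of that receptor, rose by 1.24 ± 0.07 and 0.39 ± 0.08. IRAK3, which restrains the pathway, fell in DU 145 cells from 58.0 ± 4.87 to 19.8 ± 1.26, just under the limit (adjusted p = 7.1e-11), and was under it in both PC-3 groups. The adaptor MYD88 rose by 0.22 ± 0.08 in DU 145 cells (adjusted p = 0.018) and had a log2 fold change of -0.47 ± 0.06 in PC-3 cells. Its DU 145 value was 0.63 with TMM and 0.50 with positive control probes. The ligand-binding receptor IL1R1 did not pass in DU 145 cells (-0.11 ± 0.16) and was under the limit in both PC-3 groups. The decoy receptor IL1R2 was under the limit in both DU 145 groups and did not pass in PC-3 cells.

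Among 15 gp130 receptor and JAK-STAT genes, DU 145 cells had 6 higher and 8 lower (19% and 47.1% of all tested genes). PC-3 cells had 5 each way (21.9% and 36.8% of all tested genes). With TMM the DU 145 split was 7 higher against 5 lower. IL6R, the IL6-binding chain, rose from 100.2 ± 14.4 to 370 ± 23.3 counts in DU 145 cells (n = 3 each) and from 106 ± 6.41 (n = 2) to 186 ± 7.31 (n = 3) in PC-3 cells. These are log2 fold changes of 1.88 ± 0.09 and 0.79 ± 0.11. IL11RA, the IL11-binding chain, had -1.08 ± 0.16 in DU 145 cells and -0.34 ± 0.21 in PC-3 cells, the latter without a call. LIFR, the LIF-binding chain, had 0.12 ± 0.06 (adjusted p = 0.048) and 0.53 ± 0.08. Its DU 145 value was 0.54 with TMM and 0.40 with positive control probes. SOCS1, a feedback inhibitor of JAK kinases, rose by 3.23 ± 0.13 in DU 145 cells, from 28.1 ± 1.26 to 265 ± 23.0 counts, and by 0.36 ± 0.14 in PC-3 cells, where the call was lost with positive control probes (adjusted p = 0.061). Its DU 145 control mean was close to the limit of 27.5, and after negative probe subtraction the DU 145 value was 4.28. SOCS2, another feedback inhibitor of the SOCS family, fell in both lines (-1.41 ± 0.06 and -0.60 ± 0.07).

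STAT3, the main transcription factor behind gp130, marked a baseline difference between the lines. Its mean count was 2776 ± 13.3 in control and 1527 ± 46.9 in MS13-treated DU 145 cells, a log2 fold change of -0.86 ± 0.04. In PC-3 cells it was 11.4 and 9.86 in the control and treated groups, under the limit in both. The PC-3 line is known for a deletion that includes this gene. The IL6, IL11 and LIF values of PC-3 cells therefore belong to cells in which STAT3 transcripts were not detectable above background.

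Of 4 tested receptors for the other cytokines, none rose and 2 fell in each line. IL20RA, a receptor chain used by IL24, fell in PC-3 cells from a mean of 75.2 to 37.2 counts (adjusted p = 3.0e-06). IL22RA1, another such chain, had a log2 fold change of -0.41 ± 0.17 there. In DU 145 cells IL22RA1 (-0.60 ± 0.17) and IL20RB (-0.57 ± 0.11) were the genes that fell, and with TMM none of the 4 was called in that line. In PC-3 cells with TMM, IL22RA1 lost its call (adjusted p = 0.17) and IL20RB was called higher (0.57, adjusted p = 0.013). CSF3R, the CSF3 receptor, was under the limit in all groups.

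Among 17 other tested cytokines, 6 were above the limit in some group. DU 145 cells had 2 of the 17 higher and 2 lower (19% and 47.1% of all tested genes). PC-3 cells had 3 higher and 2 lower (21.9% and 36.8% of all tested genes). With TMM or positive control probes, DU 145 cells had none lower, and with TMM PC-3 cells had 5 higher and 2 lower. KITLG, the stem cell factor, rose in both lines (1.03 ± 0.05 and 0.93 ± 0.05), and so did IL12A (0.61 ± 0.15 and 1.22 ± 0.15), the p35 chain of interleukin-12. IL23A, the p19 chain of interleukin-23, fell in PC-3 cells by 0.63 ± 0.14 on the log2 scale.

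**Figure D4:**
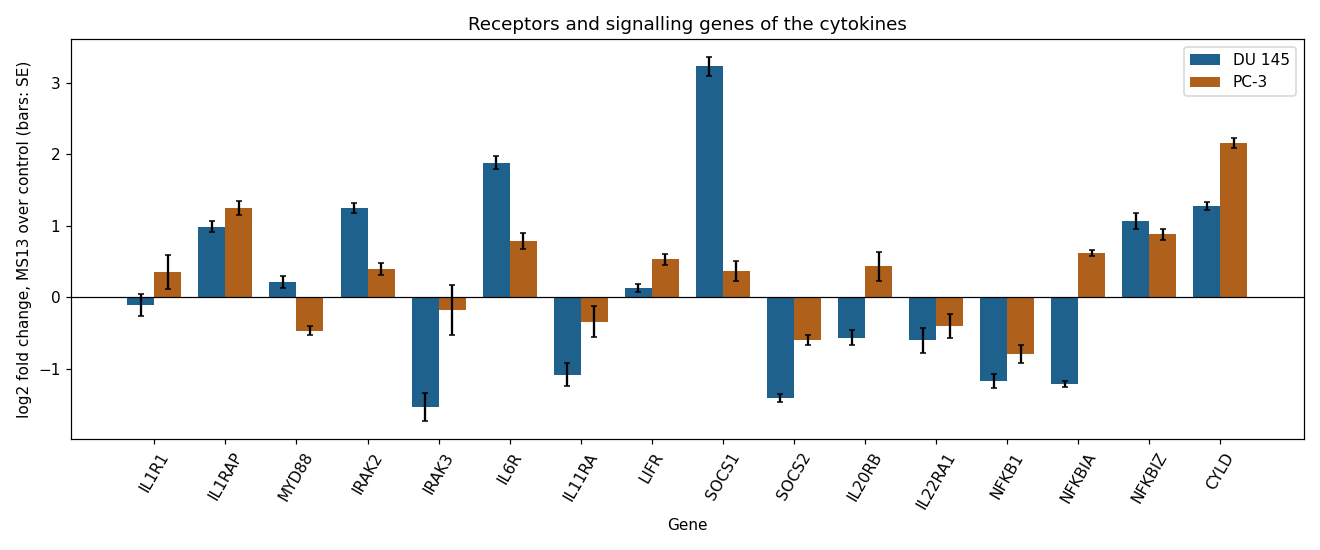
log2 fold change of MS13-treated over control cells for receptor, JAK-STAT and NF-kB genes named in the text, in DU 145 (blue) and PC-3 cells (brown), with bars of 1 SE. IL6R, IL1RAP, IRAK2, SOCS1, NFKBIZ and CYLD stand above 0 in both lines, and NFKBIA stands below 0 in DU 145 and above 0 in PC-3 cells.

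Of 11 NF-kB genes, DU 145 cells had 3 higher and 5 lower (19% and 47.1% of all tested genes). PC-3 cells had 5 higher and 3 lower (21.9% and 36.8% of all tested genes). The balance in DU 145 cells depended on scaling, with 6 higher and 4 lower by TMM and 5 higher and 4 lower by positive control probes. In PC-3 cells positive control probes gave 4 each way. NFKB1, which encodes the p50 subunit, fell in both lines (-1.17 ± 0.10 and -0.80 ± 0.12). CYLD removes ubiquitin chains and so restrains NF-kB signalling. It rose in both (1.28 ± 0.06 and 2.16 ± 0.07), as did NFKBIZ, an atypical nuclear member of the inhibitor family (1.07 ± 0.12 and 0.88 ± 0.07). NFKBIA, the inhibitor that NF-kB itself induces, went from 3500 ± 114 to 1511 ± 55.7 counts in DU 145 cells and from 1492 ± 9.73 to 2294 ± 59.4 in PC-3 cells. The difference of its responses was 1.83 ± 0.06 (adjusted p = 1.1e-41).

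In the list of AP-1 and stress factors, 4 of 7 genes were higher and 1 was lower in each line. The shares over all tested genes were 19% and 47.1% in DU 145 cells and 21.9% and 36.8% in PC-3 cells. With TMM, 6 of the 7 were higher and none lower in DU 145 cells. FOS (2.78 ± 0.06 and 3.22 ± 0.08) and JUN (1.45 ± 0.06 and 1.85 ± 0.07), which together form AP-1, and DDIT3 (3.25 ± 0.04 and 2.85 ± 0.05), a factor of the endoplasmic reticulum stress response, rose in both lines. FOSL1, another AP-1 subunit, had a log2 fold change of -1.13 ± 0.04 in PC-3 cells and 0.04 ± 0.05 in DU 145 cells (adjusted p = 0.44). In DU 145 cells it was called higher under the other 3 scalings, with 0.45 by TMM, 0.32 by positive control probes and 0.14 by the 10 most stable housekeeping genes. These lists say which genes moved beside the cytokines and do not assign a regulator to any of them.

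Other panel genes were ranked by how closely their log2 counts followed each cytokine over the 11 samples, as a description only, since the samples fall into 4 groups. IL8 was matched most closely by SOX9, SMARCA4 and MET (Pearson r = 0.998 to 0.997), and IL1B by HMGA2, DUSP4 and PLAT (r = 0.993 each). For both, the pattern was mainly the gap between the lines. IL11 was matched by MLF1, IL1RAP and MAP2K1 (r = 0.994 to 0.991), and LIF by PCNA, RIN1 and MCM7 (r = 0.971 to 0.915). The closest genes for IL6 were BDNF, RPS27A and SMAD9 (r = 0.957 to 0.926). The closest gene was CDC25A for IL24 (r = 0.931) and CDK6 for IL1A (r = 0.958).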

How the data were processed

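RNA from 3 control and 3 MS13-treated samples of each line was counted on the nCounter PanCancer Pathway Panel. The deposited values are raw counts per probe with the 6 positive and 8 negative control probes listed; per the study's methods, the authors normalized later in nSolver with geNorm housekeeping genes, and those values were not used here. Probe sequences were not used here.

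The tools were edgeR 4.0.16 and limma 3.58.1 under R 4.3.3. The geometric mean of 40 housekeeping genes set the library scaling. A total of 684 other genes with a mean of at least 10 counts over the samples were tested in 1 fit of the 4 groups (glmQLFit, glmQLFTest), with Benjamini-Hochberg adjustment over all of them and calls at 0.05. PC-3 control replicates 2 and 3 were added, leaving 11 samples. The standard error was taken as the absolute log2 fold change over the root of its F value. Where 1 group lay under the background limit, the limit took its place and the fold is given as "at least". The housekeeping genes were named from knowledge of the panel. The pipeline was tested on simulated data.

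The cytokine genes, gene lists, marker lists and tests were chosen with earlier results of these data known. All cytokine genes are named whatever their values, with the receptor chains and, of each list, the 4 genes with the smallest adjusted p in a line among those above the limit in a group. Some genes that these rules take in are not reported here. The alternatives were DESeq2 1.42.0, TMM, the 10 most stable housekeeping genes, positive control probes, negative probe mean subtraction, other count minimums, each line alone, a replicate block, 12 separate samples and leaving out each sample. Same-numbered control and treated samples did not deviate together (r of -0.20 to 0.035), so the fit used no pairing. A gene at low counts carries a larger counting error.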

Additional observations from a re-analysis of the deposited data

Results flagged for a closer look

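8 of the 9 tested cytokine genes drew attention because their response to MS13 differed between the lines in the test of that difference (edgeR quasi-likelihood test, log2 response in PC-3 minus that in DU 145). The differences were 2.41 for IL6, 1.09 for IL1A and 0.50 for IL11, and -0.28 for IL8, -0.68 for CSF2, -1.09 for LIF, -1.22 for IL1B and -1.74 for IL24. IL1A and IL1B were under the background limit in both DU 145 groups, and IL24 in the DU 145 controls. With TMM or positive control probes the differences of IL1A and IL11 did not pass the threshold. As a background, 32% of all 684 tested genes were called higher and 18% lower in the same test. No test for an outlying value of a single gene was run, since every group had 3 samples or fewer.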

How the results depend on the processing

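Of 760 values of single cytokine genes recomputed under other settings, 716 kept their direction and side of the threshold, 21 lost the call, 13 gained it and 10 changed sign. Many of these settings could hardly move a value, such as leaving out a sample of the other line or changing the count minimum. The share that stayed the same is therefore no measure of stability. IL6, IL8, IL11 and IL24 in DU 145 cells and IL1A, IL1B, IL8, IL11 and LIF in PC-3 cells were called under all 4 scalings and without any 1 sample. With positive control probes 5 genes were lower in PC-3 cells and 1 had the higher response there, and with TMM 1 had the higher response. In PC-3 cells only IL11 was higher after subtraction of the negative probe mean, where IL1A lost its call (adjusted p = 0.19). Only IL11 was higher with a minimum mean of 50, which leaves 6 cytokine genes tested, without IL1A.

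All changes of sign concerned genes under the background limit. IL1A in DU 145 cells had 0.33 with TMM, 0.014 with the 10 most stable housekeeping genes, 0.20 with positive control probes, 0.24 after negative probe subtraction, 0.088 without MS13 replicate 1 and 0.030 without control replicate 2. CSF3 in PC-3 cells had -0.057 with positive control probes, -0.16 and -0.14 without control replicates 1 and 2, and -0.067 without MS13 replicate 2. The cause was not tested. Left out in turn, samples moved IL1A from -0.27 to 0.088 in DU 145 cells and CSF3 from -0.16 to 0.39 in PC-3 cells.

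Over all genes, scaling moved the split of higher against lower calls from 130 and 322 to 223 and 204 (TMM) or 181 and 226 (positive control probes) in DU 145 cells, and from 219 and 123 to 122 and 202 or 94 and 217 in the difference of the lines. In PC-3 cells the split went from 150 and 252 to 197 and 222 with TMM. A replicate block over 12 samples changed no call of a cytokine gene, with 3 higher and 3 lower in DU 145 cells and IL6 at -2.24. Background limits the reading of TNF, CSF3, IL1A and, in DU 145 cells, IL1B, whose counts lay near or under those of the negative probes. It also limits IL24, with a DU 145 control mean of 24.6 (limit 27.5) and a treated PC-3 mean of 40.3 (3 SD limit 42.6). With MS13 the normalized mean of the negative probes went from 15.1 to 12.4 in DU 145 cells and from 15.9 to 17.1 in PC-3 cells.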
